A study of Mus musculus with 30 samples.

Results

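The mitochondrial genome carries its own small set of genes, whose symbols start with mt- in mouse annotation. All 37 of these genes were among the 49089 counted, and they were chosen by symbol alone after Ensembl identifiers had been matched to GENCODE M21 (GRCm38). They comprise 13 mRNA genes, 2 rRNA genes and 22 tRNA genes on chromosome M. RNA-seq had been made from 30 samples of AML12 cells, an immortalised hepatocyte line of the mouse. FoxK1 and FoxK2, a pair of forkhead transcription factors, were knocked down alone (FoxK1 KD, FoxK2 KD) or together (DKD) and set against Control cells. After serum starvation overnight, cells of each kind were left basal or given insulin at 100 nM for 6 h, which makes 8 groups. There were 4 samples a group, except for Control and DKD cells after insulin, with 3 each. The study's methods describe transient siRNA transfection, with a non-targeting siRNA in Control cells. The labels give basal samples a treatment time of 0, whereas the protocol describes a mock treatment beside insulin. If the labels are right, every comparison of insulin with basal also includes 6 h of further time in culture. The study's statistics section says in general that n counts animals or independent experiments, but no source used here says whether these RNA-seq samples came from separate cultures. If they did not, p-values measure only a spread between samples that may be technical.

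Both strands of the mitochondrial genome are transcribed as long precursors by a polymerase of its own, and the tRNAs that lie between most of the other genes are cut out to release mRNAs and rRNAs. The heavy-strand precursors give both rRNAs, most tRNAs and all mRNAs but mt-Nd6, which comes from the light-strand precursor and encodes a subunit of respiratory complex I. The mRNAs encode core subunits of complex I (mt-Nd genes), complex III (mt-Cytb), complex IV (mt-Co genes) and ATP synthase (mt-Atp genes). The remaining subunits and the transcription machinery come from nuclear genes.

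Several mitochondrial genes have copies in nuclear chromosomes, and the sequences below show how alike they are. On GRCm38, mt-Nd3 (start shown, chrM:9459-9518, + strand) and the annotated pseudogene Gm28438 (chr1:24613060-24613119, - strand) differed at 1 of the 345 bases compared, T3C with positions counted from the 5′ end of each transcript and the mitochondrial base first. That base is in capitals.
mt-Nd3: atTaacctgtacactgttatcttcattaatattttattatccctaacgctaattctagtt
Gm28438: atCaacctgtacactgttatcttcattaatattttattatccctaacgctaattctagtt
Over 681 bases, mt-Co2 (start shown, chrM:7013-7072, + strand), a subunit of complex IV, and Gm28661 (chr1:24615506-24615565, - strand) differed at 0 bases.
mt-Co2: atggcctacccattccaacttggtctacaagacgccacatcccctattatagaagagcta
Gm28661: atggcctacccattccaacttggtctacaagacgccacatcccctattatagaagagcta
The ends of mt-Nd5 (chrM:13526-13565, + strand) and mt-Nd6 (chrM:13552-13591, - strand) are shown because these genes face each other on opposite strands and share 14 bases, in capitals, which are reverse complements.
mt-Nd5: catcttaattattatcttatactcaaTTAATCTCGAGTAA
mt-Nd6: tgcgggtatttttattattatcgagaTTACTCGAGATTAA
The alanine tRNA gene mt-Ta (chrM:5018-5086, - strand, whole) is shown because it was the only tRNA gene past the test in any of the 13 comparisons.
mt-Ta: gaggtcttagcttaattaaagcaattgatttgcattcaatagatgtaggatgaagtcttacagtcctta

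Libraries held 2141460 to 5668270 counts. Foxk1 was at 81.4 ± 10.4 CPM (counts scaled to the normalised library size; SD, n = 4) in Control and 36.8 ± 6.43 in FoxK1 KD cells at basal, and Foxk2 at 140.2 ± 8.25 in Control and 47.3 ± 3.46 in FoxK2 KD cells. In DKD cells both passed as lower than in Control, at basal and after insulin. All 8 hepatocyte markers had counts, with sums of 2121 to 2921 CPM that rested mainly on Krt18, Krt8 and Apob (medians of 1090, 713 and 591 CPM). Medians of the others were 137 CPM for Hnf4a, 36.0 for Ttr, 14.3 for Trf, 6.77 for Alb and 0.371 for Apoa1, which was at 0 in at least 1 library. The cholangiocyte markers summed to 534 to 1073 CPM with Epcam at 0, and those of stellate cells, leukocytes and endothelial cells reached at most 1.39, 22.1 and 0.55 CPM. For a small share of genes, the 12 basal libraries without DKD stood apart from the other 18 libraries. Of 11368 tested genes, 83 (0.73%) were higher in each of the 12 than in any of the 18, mt-Nd6 among them, and 52 (0.457%) were lower. Pseudogenes made up 10 of the lower and 0 of the higher genes, and their share among all tested genes was not counted. No other division of the libraries was counted, so whether this one is unusual cannot be said. The labels name no batch, and each group lies wholly on one side of this split, so that it cannot be told apart from the groups in DKD against Control at basal, in insulin against basal outside DKD cells, or in the interactions. The other comparisons lie within one side.

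The mitochondrial genes differed greatly in how well they were counted. The heavy-strand mRNAs mt-Nd1, mt-Nd2, mt-Co1, mt-Nd4, mt-Nd5 and mt-Cytb took 84.01% of the counts on the 37 genes, the 2 rRNAs took 14.4% and mt-Nd6 took 1.38%. In Control cells at basal, levels per length were highest for mt-Nd1, at 4550.2 ± 703 CPM per kb (SD, n = 4), and mt-Co1, at 2788 ± 549. Next came mt-Cytb at 1622 ± 257, mt-Nd2 at 1398 ± 399, mt-Nd5 at 1139.8 ± 274 and mt-Rnr2, the large rRNA, at 1109 ± 192 CPM per kb. Neighbours in that row of 4 lay within their spread. Below them were mt-Nd4 at 782 ± 212, mt-Nd6 at 634 ± 90.3 and mt-Rnr1, the small rRNA, at 481 ± 121 CPM per kb, and the ranges of 1 SD around neighbouring means overlapped. These levels divide by whole gene length and were not corrected for sequence shared with other transcripts. Shared 50-base windows, described below, made up 51.1% of mt-Co1 and 62.2% of mt-Nd4, but 0 of mt-Nd1 and mt-Cytb. Their part in this order was not tested. The libraries are described as poly(A) RNA, which bears on all these levels, those of the rRNAs, the tRNAs and mt-Nd6 included. How far each RNA was captured was not tested.

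The other 6 heavy-strand mRNAs were nearly uncounted. In Control cells at basal mt-Co2 had 7.67 ± 2.25 CPM per kb, and mt-Atp6, mt-Co3 and mt-Nd3 had 3.73 ± 1.66, 4.48 ± 1.92 and 3.94 ± 2.13. Across all 30 libraries mt-Atp8 had 11 counts and mt-Nd4l had 39, and neither passed the filter on low counts. Of all 50-base windows, 97.99 to 100% of those in mt-Co2, mt-Atp6, mt-Co3, mt-Nd3 and mt-Nd4l occurred letter for letter in another annotated transcript, chiefly in pseudogenes that stand in a row on chromosome 1. The share was 62.2% in mt-Nd4, 51.1% in mt-Co1, 8.19% in mt-Nd2, 7.61% in mt-Nd5 and 1.04% in mt-Rnr2, and 0 in mt-Nd1, mt-Nd6, mt-Cytb and mt-Rnr1. mt-Atp8 had no shared window either, and 43 of its 204 bases overlap mt-Atp6. How reads with several matches were counted is not given in the sources used here, and its part in these low counts was not tested.

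**Figure D1:**
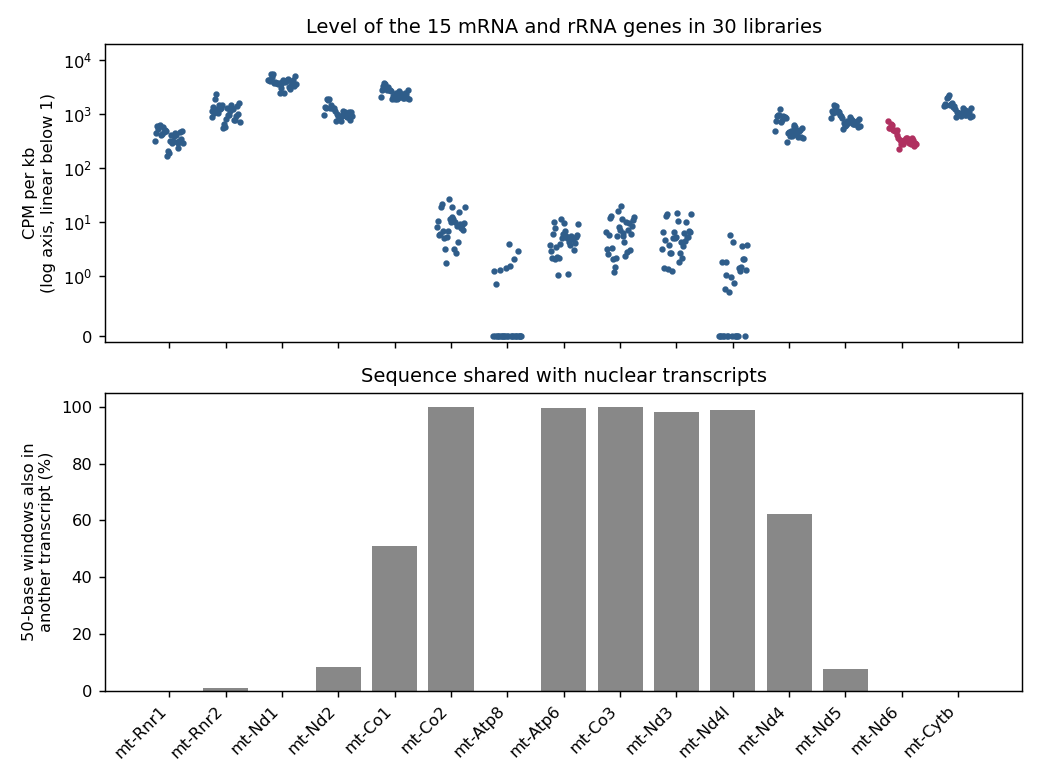
The upper panel plots CPM per kb (log axis, linear near 0) of the 13 mRNA and 2 rRNA genes in genome order, 1 point per library (30), with mt-Nd6 in red. The lower panel gives the percentage of 50-base windows of each gene that also occur in another annotated transcript: of the 6 nearly uncounted genes, mt-Atp8 is at 0 and the others are at 97.99% or more.

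Gm28438, the copy of mt-Nd3, took far more counts than its mitochondrial partner. Over the 30 libraries it had 33719 counts against 225 for mt-Nd3, from which it differs by the base shown above. Reads of mitochondrial RNA that carried C at that base would match Gm28438 and not mt-Nd3. The base in the mitochondrial DNA of AML12 cells is not given in the sources used here. Whether the counts on Gm28438 came from the nuclear copy or from mitochondrial RNA was not tested. Gm28661 had 1770 counts against 746 for mt-Co2, Gm10925 had 474 against 371 for mt-Atp6 and Gm28437 had 305 against 599 for mt-Co3. Gm28438 was at 448 ± 134 CPM in Control and 248 ± 108 CPM in DKD cells at basal, with overlap, a log2 fold change of -0.85 ± 0.21 (SE; edgeR adjusted p = 0.003103). With insulin in Control cells it was at 192 ± 25.97 CPM, without overlap, a change of -1.23 ± 0.23 (adjusted p = 0.000121). Like the well-counted mitochondrial mRNAs below, it was lower in both comparisons.

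Of the 22 tRNA genes, mt-Tl1, mt-Tw, mt-Ta and mt-Te (for leucine, tryptophan, alanine and glutamate) passed the filter. Of the other 18, mt-Ts1, mt-Td, mt-Tk and mt-Tg had 0 counts in every library, which allows up to 3 counts of 109005326, and the rest had at most 8 counts in a library and 56 in all. In all, 17 of the 37 genes were tested.

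The mean share of all counts that fell on the 37 genes was lowest in DKD cells at basal. In Control cells at basal it was 1.32, 1.71, 1.73 and 2.13% (mean 1.72 ± 0.331, SD, n = 4). In DKD cells at basal it was 0.989, 1.26, 1.15 and 1.25% (mean 1.16 ± 0.127), and every value lay below every Control value. FoxK1 KD cells had 2.03 ± 0.373% and FoxK2 KD cells 1.67 ± 0.0825%, and both overlapped with Control. After insulin the share was 1.44, 1.11 and 1.3% in Control cells and 1.18, 1.705 and 1.19% in DKD cells, where replicate 2 stood above the other 2. It was 1.5 ± 0.128% in FoxK1 KD and 1.31 ± 0.1602% in FoxK2 KD cells. The 4 insulin groups overlapped with each other. Insulin and basal libraries did not overlap in either single knockdown, where insulin was lower, and overlapped in Control and in DKD cells. Counting error was small beside these spreads: for Control replicate 1 at basal the 95% Wilson interval was 1.31 to 1.33%, which covers counting error only. Shares and CPM are relative to all RNA counted. In bulk samples, less mitochondrial RNA per cell, more other RNA per cell and fewer cells rich in mitochondrial RNA cannot be told apart.

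**Figure D2:**
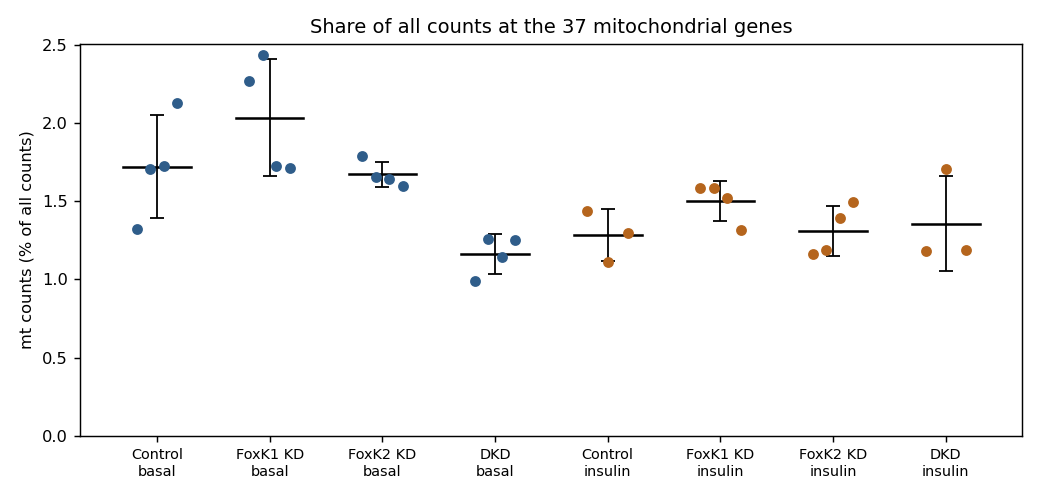
Percentage of all counts on the 37 mitochondrial genes, 1 point per library, for basal (blue) and insulin (brown) groups; lines and bars are means and SD (n = 4, or 3 for Control and DKD after insulin). DKD cells at basal lie below all Control basal libraries.

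In DKD cells at basal, 13 of the 17 tested genes passed an adjusted p of 0.05 in edgeR's quasi-likelihood test, 10 lower and 3 higher than in Control, and 21.1% of all 11368 genes passed. All 6 well-counted heavy-strand mRNAs fell, with log2 fold changes of -0.94 to -0.47 (median -0.66). mt-Cytb, the cytochrome b of complex III, had 1654, 1778, 1700.4 and 2289 CPM in Control and 1013, 1284, 1228 and 1138 CPM in DKD cells. The groups did not overlap, and the log2 fold change was -0.67 ± 0.13 (SE, adjusted p = 0.000312). mt-Nd4 and mt-Nd5, of complex I, changed by -0.94 ± 0.16 and -0.90 ± 0.12 (adjusted p = 8.71e-05 and 3.96e-06) without overlap. mt-Nd2, of complex I, and mt-Co1, the catalytic subunit of complex IV, changed by -0.64 ± 0.14 and -0.48 ± 0.12 (adjusted p = 0.00132 and 0.00496), and both overlapped through Control replicate 1. mt-Nd1, of complex I, changed by -0.47 ± 0.15 (adjusted p = 0.025) and lost its call without Control replicate 4 (adjusted p = 0.118), DKD replicate 1 (0.122) or DKD replicate 3 (0.0637).

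Both rRNAs, parts of the mitochondrial ribosome, also fell in DKD cells. mt-Rnr1 had 309.6, 435, 578 and 516 CPM in Control and 158, 203, 182 and 302 CPM in DKD cells. The groups lay apart by a small margin, and the log2 fold change was -1.12 ± 0.20 (adjusted p = 0.00012). mt-Rnr2 changed by -0.76 ± 0.20 (adjusted p = 0.00705), also without overlap. mt-Ta had 13.04, 9.502, 11.9 and 9.9999 CPM in Control and 2.58, 4.07, 6.48 and 5.39 CPM in DKD cells. It did not overlap and changed by -1.29 ± 0.30 (adjusted p = 0.00201). The other tested tRNA genes did not pass, with log2 fold changes of -0.77 (mt-Tl1), -1.06 (mt-Tw) and -0.86 (mt-Te). Without Control replicate 1, mt-Tl1 passed (-1.07, adjusted p = 0.0127).

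The light-strand gene mt-Nd6 had the smallest adjusted p of the 17. It had 389, 291, 292 and 344 CPM in Control and 119.7, 171, 143 and 156 CPM in DKD cells. All DKD values lay well below all Control values, with a log2 fold change of -1.15 ± 0.11 (adjusted p = 8.14e-09). The call held in all 8 fits without 1 library, with log2 fold changes of -1.24 to -1.07.

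Of the 6 nearly uncounted genes, 3 passed as higher. mt-Co2, mt-Atp6 and mt-Co3 rose in DKD cells by 1.20 ± 0.40, 1.09 ± 0.37 and 1.55 ± 0.43 on the log2 scale (adjusted p = 0.0281, 0.0341 and 0.00889), and mt-Nd3 had 1.04 ± 0.54 (adjusted p = 0.178). The remaining pair, mt-Atp8 and mt-Nd4l, was not tested. mt-Co3, a subunit of complex IV, had 18, 10, 8 and 25 counts in Control and 44, 22, 12 and 60 counts in DKD libraries. The calls of mt-Co2 and mt-Atp6 were each lost in 4 of 8 fits without 1 library (adjusted p of 0.0686 to 0.167): both without Control replicate 3, DKD replicate 1 or DKD replicate 4, mt-Co2 without Control replicate 4 and mt-Atp6 without Control replicate 2. That of mt-Co3 was lost without DKD replicate 4 (adjusted p = 0.0611). Their copies Gm28661, Gm10925 and Gm28437 did not pass, with log2 fold changes of 0.33, -1.08 and -1.09. Reads of a gene and its identical copy cannot be told apart.

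Base composition moved with this comparison. The well-counted mitochondrial mRNAs and rRNAs have a GC content of 34 to 40%. Among 687 tested nuclear genes in that range, the median log2 fold change of DKD against Control was -0.27, with 215 genes lower and 8 higher. Over 11329 nuclear genes, which are not independent replicates, GC content and log2 fold change had a Spearman correlation of 0.47. The sum of 4 leukocyte markers was 8.22 to 12.9 CPM in Control and 15.7 to 17.97 CPM in DKD cells, and it rested on Csf1r, with means of 9.02 and 15.7 CPM. Ptprc had means of 1.397 and 0.725 CPM and Cd68 of 0.596 and 0.643 CPM, and Adgre1 was at 0. In FoxK1 KD cells at basal the sum was also above Control (17.7 to 22.1 CPM). The part of GC content or Csf1r in the mitochondrial result was not tested, and this comparison crosses the split of libraries.

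The single knockdowns moved few of these genes at basal. In FoxK1 KD cells 0 of 17 genes passed by edgeR, DESeq2 or limma-voom (edgeR background 8.09%), and 3 had an unadjusted p under 0.05 in each tool. The 6 well-counted heavy-strand mRNAs had log2 fold changes of 0.00 to 0.27, and mt-Rnr2 had 0.55 ± 0.20 (adjusted p = 0.0831). mt-Nd6 had 323, 261, 263 and 256 CPM, which overlaps with Control, and a log2 fold change of -0.25 ± 0.11 (adjusted p = 0.143). Without Control replicate 4, mt-Co1 and mt-Nd2 passed as higher (0.38 and 0.44, adjusted p = 0.0445 and 0.0285), and without FoxK1 KD replicate 4 so did mt-Rnr2 (0.71, adjusted p = 0.03495).

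In FoxK2 KD cells 1 of 17 genes passed, mt-Nd6, and 0.378% of all genes did. mt-Nd6 had 250.3, 269.9, 213 and 187 CPM, all below the 4 Control values, with a log2 fold change of -0.52 ± 0.11 (adjusted p = 0.0229). The call was lost without Control replicate 1, FoxK2 KD replicate 3 or FoxK2 KD replicate 4 (adjusted p = 0.0866, 0.0971 and 0.127). The 6 heavy-strand mRNAs had -0.26 to 0.18 and did not pass.

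**Figure D3:**
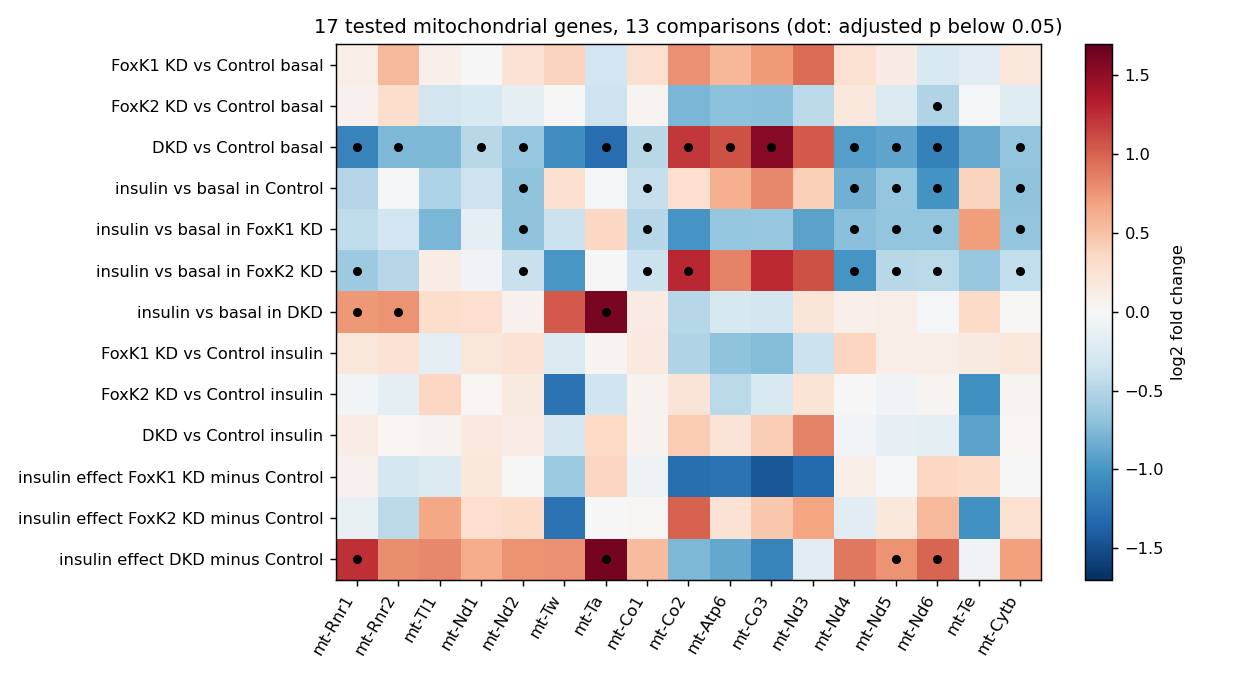
Log2 fold change of the 17 tested genes in genome order, in 13 comparisons, with red for higher and blue for lower in the group named before the comparator; a black dot marks an adjusted p below 0.05 (edgeR). In DKD against Control at basal 10 genes are marked as lower, and mt-Co2, mt-Atp6 and mt-Co3 as higher.

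After insulin, mt-Nd6 and 5 of the well-counted heavy-strand mRNAs passed as lower in Control cells and in both single knockdowns, whereas mt-Nd1 passed in none of the 3. In Control cells 6 of 17 genes passed (35.3%), all lower, and 25.4% of all genes passed. They were mt-Nd6, mt-Nd2 (-0.69 ± 0.15), mt-Nd4 (-0.82 ± 0.18), mt-Nd5 (-0.65 ± 0.13), mt-Cytb (-0.68 ± 0.14) and mt-Co1 (-0.39 ± 0.13), the last 5 with adjusted p from 0.000404 to 0.0282. mt-Nd6 had 149, 170.0 and 168 CPM, all below the 4 basal values, with a log2 fold change of -1.02 ± 0.12 (adjusted p = 1.14e-07). mt-Cytb had 1209, 1048 and 1221 CPM and did not overlap with basal either, whereas mt-Nd4 and mt-Co1 did. The rRNAs mt-Rnr1 (-0.50 ± 0.21) and mt-Rnr2 (-0.03 ± 0.22) did not pass, nor did mt-Nd1 (-0.35 ± 0.17, adjusted p = 0.1198). The nearly uncounted mt-Co2, mt-Nd3, mt-Atp6 and mt-Co3 had log2 fold changes of 0.28, 0.41, 0.60 and 0.82 and did not pass. The call of mt-Co1 was lost without Control replicate 3 or 4 at basal, or replicate 2 or 3 after insulin (adjusted p of 0.0587 to 0.142). mt-Rnr1 passed without replicate 1 at basal (-0.65, adjusted p = 0.0143) or after insulin (-0.68, 0.0374), and mt-Nd1 without the latter (-0.50, 0.0491).

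In FoxK1 KD cells, where 31.6% of all genes passed, 6 of 17 did (35.3%, close to that background), the same 6 genes as in Control and again all lower. mt-Nd6 had 186, 186, 172 and 152 CPM, below all 4 basal values, and changed by -0.67 ± 0.11 (adjusted p = 2.91e-05). The other 5 changed by -0.49 (mt-Co1) to -0.71 (mt-Nd4). None of the 6 overlapped between insulin and basal, and all 6 calls held in each of the 8 fits without 1 library.

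In FoxK2 KD cells, where 28.1% of all genes passed, 8 of 17 did (47.1%), 7 lower and 1 higher, among them the 6 of Control. mt-Nd6 had 163, 146, 186 and 173 CPM, close to the basal values without overlap, and changed by -0.46 ± 0.11 (adjusted p = 0.00195). mt-Nd4 changed by -0.999 ± 0.16 (adjusted p = 1.41e-05) and mt-Rnr1 by -0.62 ± 0.19 (adjusted p = 0.01398). The gene called higher was mt-Co2 (1.28 ± 0.47, adjusted p = 0.0401), on 7, 5, 17 and 21 counts at basal and 48, 23, 18 and 19 after insulin, and its copy Gm28661 changed by 1.28 ± 0.44 (adjusted p = 0.0287). mt-Atp6, mt-Nd3 and mt-Co3 had 0.84, 1.08 and 1.27 and did not pass, nor did mt-Nd1 (-0.06, adjusted p = 0.795). The calls fell to 5, 4 and 5 without replicate 1 at basal and replicates 1 and 2 after insulin. Of 8 fits without 1 library, mt-Nd2 kept its call in only 2, mt-Co2 in 3, mt-Co1 in 5 and mt-Rnr1 in 7. Their adjusted p rose to as much as 0.115, 0.186, 0.0770 and 0.0775. mt-Nd6, mt-Nd4, mt-Nd5 and mt-Cytb kept theirs in all 8, and mt-Co3 and mt-Rnr2 gained a call in 2 and 1.

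These 3 insulin comparisons cross the split of libraries. Among the 687 nuclear genes of like GC content the median log2 fold change was -0.09 in Control, -0.18 in FoxK1 KD and -0.13 in FoxK2 KD cells, and the Spearman correlation with GC content over nuclear genes was 0.08, 0.32 and 0.24. The leukocyte marker sum was lower after insulin than at basal without overlap in all 4 genotypes. Basal sums are given above for Control, FoxK1 KD and DKD cells and were 11.1 to 13.4 CPM in FoxK2 KD cells. Sums after insulin were 4.09 to 6.33 CPM in Control, 10.5 to 13.7 CPM in FoxK1 KD, 4.09 to 6.61 CPM in FoxK2 KD and 6.63 to 9.51 CPM in DKD cells. Csf1r carried the sum, with means of 9.02 CPM at basal and 2.702 CPM after insulin in Control cells, whereas Cd68 had 0.596 and 1.596 CPM and Ptprc 1.397 and 1.18 CPM. The part of GC content or of these markers in the lower mitochondrial mRNAs was not tested.

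In DKD cells no mitochondrial mRNA passed with insulin. Of 17 genes 3 passed (17.6%), all higher, and 16.3% of all genes passed, a share close to theirs. They were mt-Rnr1 (0.74 ± 0.21, adjusted p = 0.0131), mt-Rnr2 (0.77 ± 0.22, adjusted p = 0.0132) and mt-Ta (1.61 ± 0.31, adjusted p = 0.000336). mt-Ta had 11.95, 20.9 and 10.4 CPM after insulin, above all 4 basal values. mt-Rnr1 had 326, 467 and 275 CPM and mt-Rnr2 1632, 2535 and 1137 CPM, and both overlapped with basal. Both rRNA calls were lost without DKD replicate 2 after insulin (0.50 and 0.41, adjusted p = 0.164 and 0.258) or DKD replicate 1 at basal (0.62 and 0.70, adjusted p = 0.0665 and 0.0514). mt-Nd6 had 136, 154 and 143 CPM, within the basal range, a log2 fold change of -0.04 ± 0.12 (adjusted p = 0.884), and the 6 heavy-strand mRNAs had 0.03 to 0.28. Nuclear genes of like GC content had a median of 0.13.

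**Figure D4:**
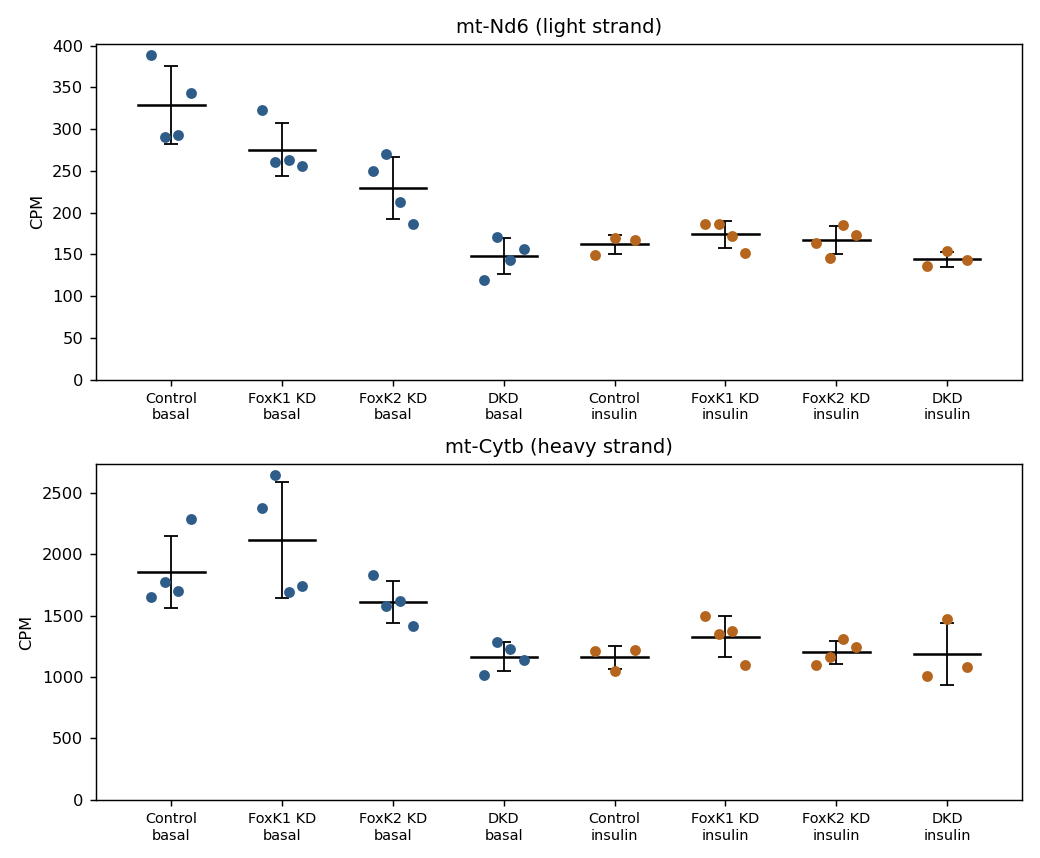
CPM of mt-Nd6 (upper panel, light strand) and mt-Cytb (lower panel, heavy strand), 1 point per library, for basal (blue) and insulin (brown) groups; lines and bars are means and SD. mt-Nd6 is at 187 to 389 CPM in the 12 basal libraries without DKD and at 119.7 to 185.9 CPM in the other 18.

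The insulin effect was compared directly between genotypes as an interaction. It equals the difference from Control after insulin less that at basal and uses the same libraries, so it is not independent of the basal comparison. For mt-Nd6 in DKD cells these differences were -0.17 and -1.15. For DKD against Control cells 4 of 17 genes passed, all with a positive difference, and 1.54% of all genes passed. They were mt-Nd6 (0.98 ± 0.17, adjusted p = 0.00153), mt-Nd5 (0.76 ± 0.19, 0.0317), mt-Rnr1 (1.24 ± 0.30, 0.0235) and mt-Ta (1.62 ± 0.41, 0.0356). mt-Nd6 kept its call in all 14 fits without 1 library (adjusted p of 0.00107 to 0.00944). The calls of mt-Nd5, mt-Rnr1 and mt-Ta were all lost without DKD replicate 1 at basal, Control replicate 2 or 3 after insulin, or DKD replicate 2 after insulin. Those of mt-Nd5 and mt-Rnr1 were also lost without DKD replicate 3 at basal, that of mt-Nd5 without Control replicate 4 at basal, and that of mt-Ta without Control replicate 3 or DKD replicate 2 at basal (adjusted p of 0.0511 to 0.163 over these losses). Without Control replicate 1 at basal, 8 genes passed. mt-Nd4, mt-Cytb and mt-Nd2 had differences of 0.90, 0.70 and 0.76 (adjusted p = 0.0523, 0.0541 and 0.05797). Nuclear genes of like GC content had a median difference of 0.22.

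For FoxK1 KD and FoxK2 KD against Control, 0 of 17 genes passed the interaction test by edgeR, DESeq2 or limma-voom (edgeR backgrounds 0% and 0%, with 7 and 0 of all genes called by DESeq2 and 0 and 0 by limma-voom), with 2 and 1 at an unadjusted p under 0.05 in edgeR. mt-Nd6 had differences of 0.36 ± 0.17 and 0.56 ± 0.16 (adjusted p = 0.347 and 0.883).

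Knockdown and Control cells were also compared with insulin present. For FoxK1 KD, FoxK2 KD and DKD cells, 0, 0 and 0 of 17 passed by edgeR, DESeq2 or limma-voom (edgeR backgrounds 3.59, 0.0264 and 1.21%), with 1, 2 and 0 at an unadjusted p under 0.05 in edgeR. The 6 heavy-strand mRNAs had log2 fold changes of 0.12 to 0.36 in FoxK1 KD, -0.06 to 0.16 in FoxK2 KD and -0.14 to 0.16 in DKD cells. mt-Nd6 had 0.10 ± 0.12, 0.04 ± 0.12 and -0.17 ± 0.13.

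Within each library the light-strand gene mt-Nd6 was set against the heavy-strand mRNAs. The tRNA genes mt-Ta and mt-Te, also on the - strand, were left out. Over the 30 libraries mt-Co1 and mt-Nd1 held 428763 and 411661 of the 1405939 counts on the 6 well-counted heavy-strand mRNAs. The ratio was mt-Nd6 counts per 1000 counts of the 12 heavy-strand mRNAs, which needs no scaling between libraries and was given no test. It also depends on how far poly(A) selection captured mt-Nd6 and the heavy-strand mRNAs, which was not tested. In Control cells at basal it was 31.99, 19.7, 19.9 and 18.1 (mean 22.4 ± 6.42, SD, n = 4), and replicate 1 stood far above the others. In DKD cells at basal it was 14.1, 15.5, 14.2 and 14.8, all below Control. In FoxK1 KD cells it was 17.2, 12.99, 18.03 and 17.5, the highest just below Control, and in FoxK2 KD cells 16.7, 19.3, 15.4 and 14.2, which overlapped with Control. After insulin it was 12.4, 18.8 and 15.2 in Control and 14.2, 11.0 and 14.2 in DKD cells, and 14.2 ± 0.388 and 15.2 ± 1.16 in FoxK1 KD and FoxK2 KD cells. In mean log2 ratio, DKD differed from Control at basal by -0.58, or -0.39 without Control replicate 1, and insulin differed from basal in Control cells by -0.52, or -0.34 without it. The insulin difference was -0.17 in DKD, -0.20 in FoxK1 KD and -0.11 in FoxK2 KD cells, and single libraries moved it: it was -0.048 in DKD cells without replicate 2 after insulin, -0.31 in FoxK1 KD cells without replicate 2 at basal, and -0.023 and -0.17 in FoxK2 KD cells without replicate 2 or 4 at basal. Reads of mt-Nd6 and of heavy-strand RNA across its locus cannot be told apart unless both the libraries and the counting kept strand. The same holds for mt-Ta. The study's methods name a NEBNext mRNA Sample Prep kit without saying whether it keeps strand. The strand setting of the counting is not given in the sources used here.

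**Figure D5:**
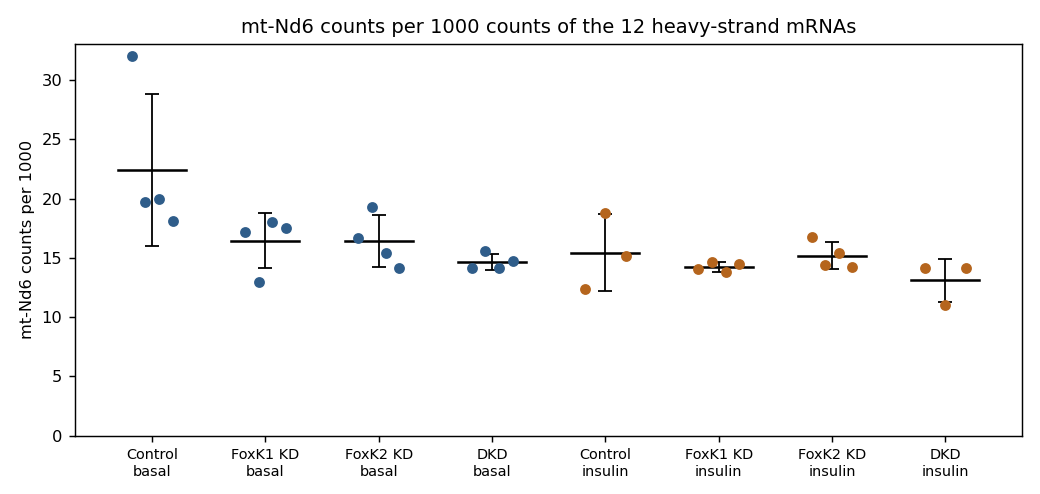
mt-Nd6 counts per 1000 counts of the 12 heavy-strand mRNAs in the same library, 1 point per library, for basal (blue) and insulin (brown) groups; lines and bars are means and SD. Control replicate 1 at basal, at 31.99, stands above the other 29 libraries.

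The ratio of rRNA to mRNA counts was given no test. The mean log2 ratio of rRNA to mRNA counts was -2.81 ± 0.28 (SD) in Control and -3.04 ± 0.21 in DKD cells at basal, and -2.42 ± 0.15 and -2.47 ± 0.34 after insulin. Control and DKD cells overlapped at basal and after insulin, as did basal and insulin libraries of either genotype. Counts of mt-Rnr1 per 1000 of mt-Rnr2 were 224, 236, 274 and 306 in Control cells at basal and 188, 180.5 and 196 after insulin, all below basal. In DKD cells at basal they were 178, 192, 202 and 233, which overlaps with Control.

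A machinery list of 47 nuclear genes, all tested, was read beside these results. Many of their products transcribe, process, stabilise or degrade mitochondrial RNA. The list also holds factors of mitochondrial DNA replication such as Twnk and Polg, the protease Lonp1, and nuclear transcription factors and coactivators such as Gabpa and Pprc1. Its counts are therefore not counts of RNA machinery alone. At basal, 9 passed in DKD cells, 5 higher and 4 lower, 19.1% of the list beside 21.1% of all genes, with a median log2 fold change of -0.08. Tfam, which packages mitochondrial DNA and activates its transcription, was at 101 ± 19.6 CPM in Control and 139 ± 17.5 CPM in DKD cells, with overlap, and rose by 0.47 ± 0.12 (adjusted p = 0.00361). Polrmt, the mitochondrial RNA polymerase, and Tfb2m, its initiation factor, did not pass (0.07 ± 0.17 and -0.13 ± 0.17). Pnpt1, a ribonuclease that degrades mitochondrial RNA, changed by -0.53 ± 0.10 (adjusted p = 0.000312), and Grsf1, of the mitochondrial RNA granules, by -0.34 ± 0.07 (adjusted p = 0.00101). Tbrg4, a FASTK-family protein of mitochondrial RNA, rose by 0.28 ± 0.09 (adjusted p = 0.0238).

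With insulin in Control cells 10 of the 47 passed, 5 in each direction, 21.3% of the list beside 25.4% of all genes. Tfam, Polrmt and Tfb2m did not pass (0.20 ± 0.13, 0.13 ± 0.18 and -0.08 ± 0.18). Twnk, the mitochondrial DNA helicase, changed by -0.59 ± 0.09 (adjusted p = 1.31e-05), Grsf1 by -0.53 ± 0.08 (4.85e-06) and Gabpa, a nuclear transcription factor of respiratory genes, by -0.34 ± 0.08 (0.00282). Tbrg4 rose by 0.70 ± 0.09 (adjusted p = 7.53e-07), Mterf3, of the mitochondrial terminator factor family, by 0.71 ± 0.15 (0.000671), the coactivator Pprc1 by 0.48 ± 0.09 (0.000154) and the mitochondrial protease Lonp1 by 0.45 ± 0.10 (0.00118).

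Of the nuclear subunits of the respiratory chain and ATP synthase, 74 were tested. At basal, 16 passed in DKD cells (5 higher, 11 lower, 21.6%), with a median log2 fold change of -0.00325 beside -0.76 for the 17 mitochondrial genes and -0.000562 for all genes. With insulin, 11 passed in Control, 13 in FoxK1 KD, 14 in FoxK2 KD cells and 2 in DKD (14.9, 17.6, 18.9 and 2.7%, each below the 25.4, 31.6, 28.1 and 16.3% of all genes), the medians being -0.02, 0.11, 0.01 and 0.08. A difference between the nuclear and mitochondrial lists was not tested.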

How the data were processed

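The authors deposited whole-number read counts per gene for 30 libraries, with no normalization. The submitters' processing notes name CASAVA 1.8, STAR 2.4.2a, featureCounts and GRCm38.p4. The strand setting and the treatment of reads with several matches are not given in the sources used here.

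Identifiers were matched to GENCODE M21 (48349 of 49089). After filterByExpr 11368 genes were left, normalised by TMM and fitted in 1 model of the 8 groups with edgeR 4.0.16 in R 4.3.3 (quasi-likelihood test, Benjamini-Hochberg adjustment over all genes, adjusted p below 0.05, no fold minimum). Each SE was derived from the log2 fold change and its F statistic. Alternatives were DESeq2 1.42.0, limma-voom 3.58.1, an adjusted p below 0.25, no filter, library sizes from nuclear genes, a replicate block and leaving out each library. Code was tested on simulated data. Windows of 50 bases were compared with all other GENCODE M21 transcripts, from which printed sequences were copied. The 37 genes and the gene lists were chosen with earlier results of these data known. All mitochondrial mRNAs, rRNAs and tested tRNAs may be named; of the machinery list, Polrmt, Tfam, Tfb2m and the 8 others with the smallest adjusted p in DKD against Control at basal or insulin in Control cells are named. Libraries held 2141460 to 5668270 counts. Of 42 pairs within groups none agreed within sampling noise (lowest chi-square 1.695 times its degrees of freedom).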

Additional observations from a re-analysis of the deposited data

Results flagged for a closer look

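The insulin effect differed between DKD and Control cells by the interaction test for 4 genes, with log2 differences of 1.24 for mt-Rnr1, 1.62 for mt-Ta, 0.76 for mt-Nd5 and 0.98 for mt-Nd6.

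Of 114 groups of 4 values examined, 13 held a sample far from the other 3 by Dixon's criterion, and chance gives about 1 in 20. In Control cells at basal the log2 ratio of mt-Nd6 to heavy-strand mRNAs was -4.97 in replicate 1, with the next at -5.65. In the same replicate mt-Tw was at 0.567 CPM and mt-Te at 1.701 CPM, below the next values of 2.0 and 5.21 CPM. In Control replicate 4 mt-Nd1 was at 5358 CPM, above the next value of 4099.5 CPM. In FoxK1 KD cells at basal the log2 ratio was lowest in replicate 2 at -6.27, mt-Nd6 was highest in replicate 1 at 323 CPM and mt-Tw was lowest in replicate 3 at 0.235 CPM. In FoxK2 KD cells at basal mt-Nd1 was lowest in replicate 3 at 3512 CPM and mt-Nd2 in replicate 4 at 1185 CPM. In DKD cells at basal mt-Nd3 was highest in replicate 4 at 5.14 CPM. After insulin, mt-Tw was lowest in FoxK1 KD replicate 3 at 1.69 CPM, and in FoxK2 KD cells mt-Co2 was highest in replicate 1 at 10.6 CPM and mt-Nd3 in replicate 2 at 3.58 CPM.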

How the results depend on the processing

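Counts of mitochondrial and machinery genes called stayed within 1.5 times under DESeq2, limma-voom, library sizes from nuclear genes and the replicate block. Same-numbered samples did not deviate together on average (mean correlation -0.013 over 99 pairs, of which 8 were over 0.1, beside 0.0043 over 294 other pairs). A mean over all pairs cannot exclude that some same-numbered samples shared a culture or transfection. With the replicate block 13 genes passed in DKD against Control at basal, 6, 6, 7 and 3 with insulin (Control first, then FoxK1 KD, FoxK2 KD, DKD), and 3 in the DKD interaction. At an adjusted p below 0.25, 4 passed in FoxK1 KD at basal (beside 26.6% of all genes), 11 and 13 with insulin in FoxK1 KD and FoxK2 KD cells (54 and 49.5%), 10 in the DKD interaction (9.88%), and 19 and 21 machinery genes in DKD at basal and with insulin in Control cells (43.6 and 46.6%). Without the filter on low counts, 3 passed in FoxK1 KD at basal (4.49%), 1 in FoxK1 KD after insulin (1.73%), 10 with insulin in FoxK1 KD (13.9%), 10 in the DKD interaction (1.51%) and 1 in the FoxK2 KD interaction (mt-Nd6, 0.56; 0.13%). Leaving out 1 library gave 0 to 2 for FoxK1 KD, 0 to 1 for FoxK2 KD and 10 to 14 for DKD at basal, 5 to 8, 6 to 8, 4 to 9 and 1 to 3 with insulin (Control first, then FoxK1 KD, FoxK2 KD, DKD), and 1 to 8 for the DKD interaction. The log2 fold change of mt-Nd6, not called in either, turned sign in FoxK2 KD against Control after insulin (-0.021 to 0.099 over the libraries left out) and with insulin in DKD cells (-0.13 to 0.042). With the rRNAs as denominator, the difference in the log2 ratio of mt-Nd6 was -0.68 for FoxK1 KD, -0.79 for FoxK2 KD and -0.33 for DKD at basal (-0.42, -0.42 and -0.58 with heavy-strand mRNAs) and -0.90, -0.37, 0.092 and -0.74 with insulin (Control first, then FoxK1 KD, FoxK2 KD, DKD). With mt-Nd5 and mt-Cytb it was -0.42, -0.31 and -0.39 at basal, and -0.36, 0.0016, -0.01 and -0.076 with insulin, in the same order. The cause was not tested. Mitochondrial shares moved by less than 1 SD with protein-coding counts as denominator. mt-Atp8, mt-Nd4l and 18 tRNA genes had too few counts to be tested.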
